A study of Rattus norvegicus with 35 samples.

Results

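The metallothioneins of the rat lung were followed across a study of carbon nanotube exposure. The members were the non-control probes named Mt3, Mt1, Mt1a, Mt1m, Mt2A or Mt4, and 4 of these 6 names were on the array: Mt1, Mt2A, Mt3 and Mt4. They are 4 of the 34766 gene names measured, and 3 of them (Mt1, Mt2A and Mt3) are among the 24468 genes that were bright enough to test. Mt3 was selected on its measured change from vehicle after nanotube exposure, so its values are given as a description and without a test. Mt1, Mt2A and Mt4 were included for their family name.

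Gene expression was measured on 35 Agilent one-colour arrays, 1 per rat, from the accessory lobe of the lung of female Sprague Dawley rats aged 12 weeks when instillation began. The 6 groups combined a genotype, wild type (WT) or GMO, the labels' name for rats heterozygous for an altered gene, with an instillation into the trachea repeated weekly for 4 weeks. The instillate was the vehicle Pluronic, Mitsui-7 or NM-403, both of the latter being multi-walled carbon nanotubes given at 0.25 mg per rat (the labels do not say whether per instillation or in total). Lobes were taken on day 3 after exposure, from 6 rats in each group except GMO rats given NM-403, of which there were 5. The labels do not say how the altered allele was made. Markers of alveolar type 2 cells, among them Sftpc and Sftpb, were well above background on all 35 arrays, as were those of alveolar type 1 cells such as Ager. The share of spots well above background ran from 66.1% to 86.4% (median 71.5%) between arrays, the highest being that of WT Mitsui-7 rat 5, and no non-control spot was saturated on any array (0). The number of arrays per group limits precision here, as does dim signal for Mt4 and for Mt3 in vehicle rats.

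Metallothioneins are small, cysteine-rich proteins that bind zinc, copper and cadmium through their thiol groups. The genes for Mt1 and Mt2A are switched on in most tissues by zinc and other metals through the zinc-sensing factor MTF-1, which binds metal response elements in their promoters, and they are also known to respond to glucocorticoids, inflammation and oxidants. Mt3 is best known from brain, where it was described as a growth inhibitory factor, and Mt4 from stratified squamous epithelium.

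The promoters are shown first, with the metal response elements through which MTF-1 is known to act on Mt1 and Mt2A. The 250 bases before each start site are printed 5′ to 3′ on the gene's strand, from RefSeq on GRCr8. Capitals mark each match on either strand to TGCACNC or TGCGCNC, the core of a metal response element. All 4 genes had an entry and lie on the minus strand. The windows printed are chr19:10832976-10833225 for Mt1, chr19:10838709-10838958 for Mt2A, chr19:10856081-10856330 for Mt3 and chr19:10871832-10872081 for Mt4.
Mt1: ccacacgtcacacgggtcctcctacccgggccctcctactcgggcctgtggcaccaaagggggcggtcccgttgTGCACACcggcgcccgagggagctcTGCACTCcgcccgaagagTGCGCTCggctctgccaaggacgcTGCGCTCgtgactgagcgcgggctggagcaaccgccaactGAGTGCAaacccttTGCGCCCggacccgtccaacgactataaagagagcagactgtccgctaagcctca
Mt2A: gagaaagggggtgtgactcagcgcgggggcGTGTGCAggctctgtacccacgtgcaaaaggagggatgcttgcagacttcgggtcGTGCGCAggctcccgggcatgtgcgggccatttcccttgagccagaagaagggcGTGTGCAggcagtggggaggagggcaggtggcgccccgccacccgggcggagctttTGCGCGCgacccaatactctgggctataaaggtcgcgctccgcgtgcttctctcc
Mt3: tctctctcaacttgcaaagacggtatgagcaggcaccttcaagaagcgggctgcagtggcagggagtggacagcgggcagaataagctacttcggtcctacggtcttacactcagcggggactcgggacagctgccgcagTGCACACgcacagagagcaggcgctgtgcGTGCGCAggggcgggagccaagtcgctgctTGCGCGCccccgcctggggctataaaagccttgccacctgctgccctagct
Mt4: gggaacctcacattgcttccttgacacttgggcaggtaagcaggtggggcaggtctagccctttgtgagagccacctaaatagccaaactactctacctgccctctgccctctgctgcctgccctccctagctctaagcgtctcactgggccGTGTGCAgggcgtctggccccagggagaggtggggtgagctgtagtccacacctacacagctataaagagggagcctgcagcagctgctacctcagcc

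The Mt1 window held 6 matches, that of Mt2A 4, that of Mt3 3 and that of Mt4 1. At least 1 match was present in 20.6% of the 33469 rat promoter windows of this length. As many as in Mt1 were found in 0.0269% of them, as many as in Mt2A in 0.266% and as many as in Mt3 in 1.17%. The match nearest to the start site lay at -55 to -49 in both Mt1 and Mt2A, at -51 to -45 in Mt3 and at -98 to -92 in Mt4. TGACNNNGC, the core of the antioxidant response element, had 1 match in Mt1, 1 in Mt2A and 0 in Mt3 and Mt4, against 10.1% of all windows with any. TATAAA, the TATA box, occurred 1 time in each of the 4 windows and in 12.9% of all windows. None of these matches overlapped another. These are matches of letters, not measured binding.

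On the array Mt1 and Mt3 were each measured by 1 probe printed in 10 spots, and Mt2A and Mt4 each by 1 probe in 1 spot. The 60-base probes lie on chromosome 19, minus strand, at 11261631 to 11261690 for Mt1, 11267834 to 11267893 for Mt2A, 11284627 to 11284686 for Mt3 and 11300132 to 11300191 for Mt4. These positions are those of the array's design, on the build its header names as rn4, and were not checked against that build. They span 38561 bases. The longest run of bases shared by any pair of these probes was 9, between those of Mt1 and Mt3. Levels below are log2 processed signal relative to the 75th percentile of the same array, and they are compared between rats for a probe, never between probes.

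Mt3 was low in vehicle rats and higher in all 4 groups given nanotubes, far more so after Mitsui-7 than after NM-403. In WT vehicle rats its level ran from -7.15 to -6.33 (median -6.44), and in GMO vehicle rats from -7.26 to -6.10 (median -6.85). In WT rats given Mitsui-7 it ran from -2.23 to 0.20 (median -0.64), and in GMO rats given Mitsui-7 from -1.53 to -0.10 (median -1.21). These 2 Mitsui-7 groups covered nearly the same levels, and each lay wholly above its vehicle group.

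After NM-403 the level of Mt3 in WT rats ran from -4.79 to -3.77 (median -4.18). In the 5 GMO rats given NM-403 it was -5.74, -5.38, -5.47, -4.91 and -3.94. Both NM-403 groups sat between vehicle and Mitsui-7 with no overlap on either side. In linear processed signal, the Mt3 spots averaged 8.85 to 22.6 in WT vehicle rats, 47.2 to 101 after NM-403 and 289 to 1202 after Mitsui-7. The same ranges in GMO rats were 10.3 to 14.9, 24.8 to 113 and 402 to 1082.

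**Figure D1:**
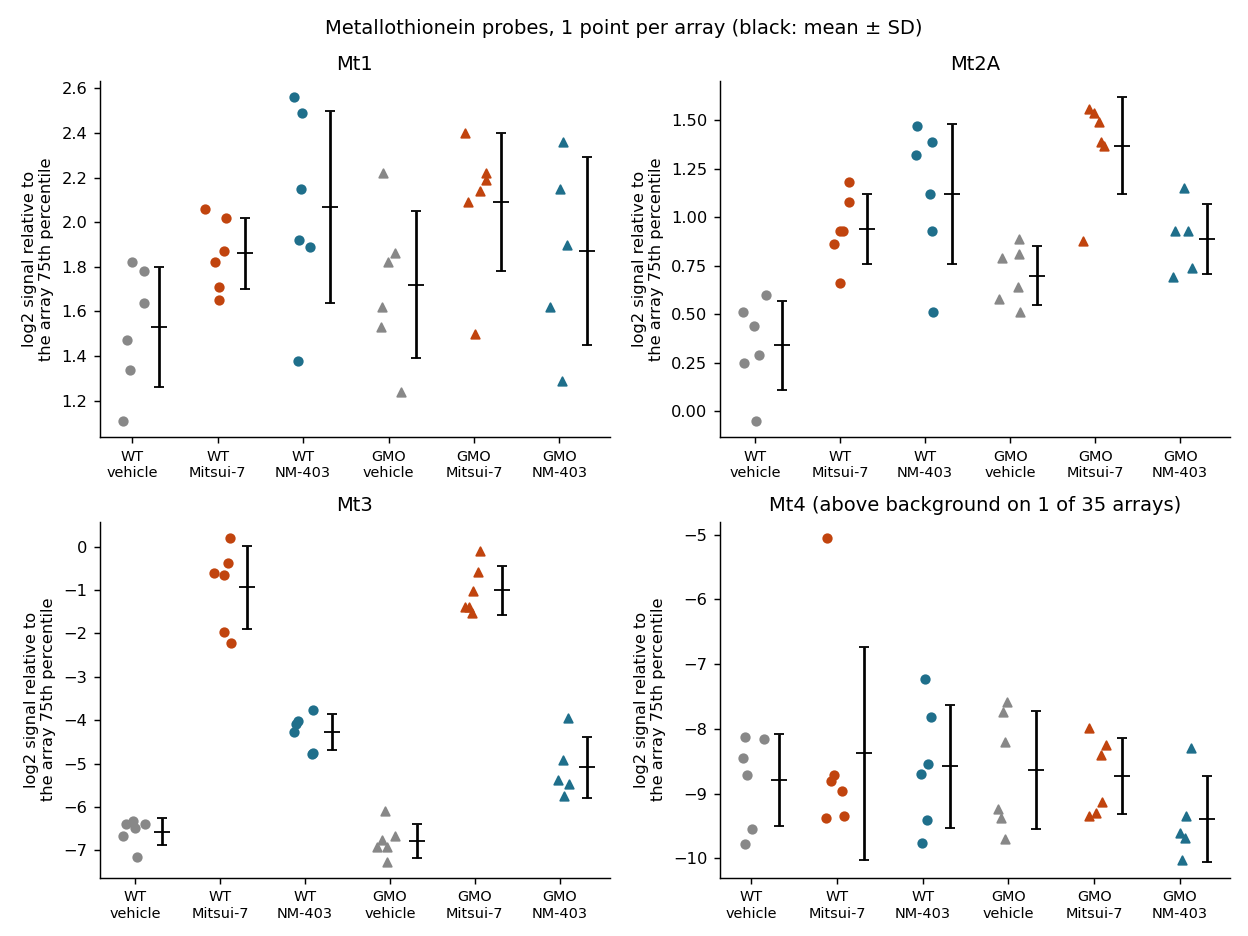
Level of each metallothionein probe (y axis, log2 processed signal relative to the array's 75th percentile; the scales differ between panels) in the 6 groups (x axis), 1 point per rat with the group mean ± SD in black. For Mt3 the Mitsui-7 groups lie between -2.23 and 0.20 and the vehicle groups at or below -6.10, while Mt4 was well above background on 1 of 35 arrays.

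The mean difference of Mt3 from vehicle was 5.63 ± 0.33 log2 (limma SE) in WT rats given Mitsui-7, 49.6-fold, and 5.77 ± 0.33 in GMO rats given Mitsui-7, 54.5-fold. After NM-403 it was 2.29 ± 0.33 in WT rats, 4.89-fold, and 1.69 ± 0.35 in GMO rats, 3.22-fold. Mitsui-7 exceeded NM-403 by 3.34 ± 0.33 in WT rats and by 4.08 ± 0.35 in GMO rats. The comparisons within a genotype share its vehicle arrays, so they are not independent of each other. Of all genes tested, 4.52% lay wholly above vehicle and 2.89% wholly below it in WT Mitsui-7, 1.77% and 0.862% in WT NM-403, 2.73% and 2.23% in GMO Mitsui-7, and 1.16% and 0.842% in GMO NM-403. Mitsui-7 lay wholly above NM-403 for 1.92% of genes in WT and 1.52% in GMO rats, and wholly below it for 0.49% and 0.527%. Mt3 lay above each time, and since it was chosen for these contrasts nothing is read from that.

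These folds depend on how background is handled, because the vehicle level of Mt3 is dim. The Mt3 probe was well above background on 5 of 6 WT vehicle arrays, in 53 of 58 spots, and on 6 of 6 GMO vehicle arrays, in 44 of 59 spots. It was above background in every spot of the exposed groups that was used. With normexp background correction, which adds an offset of 50 to each signal, the Mt3 differences from vehicle were 3.53 for WT Mitsui-7, 0.95 for WT NM-403, 3.36 for GMO Mitsui-7 and 0.37 for GMO NM-403. Among the 10 Mt3 spots of an array the SD was 0.15 to 0.40 log2 in WT vehicle rats and 0.06 to 0.08 in WT rats given Mitsui-7. In WT vehicle rats the SD between rats was 0.31 (n = 6). In GMO vehicle rats it was 0.39 (n = 6), with spot SDs of 0.26 to 0.54. The level of an array is the mean of its spots, and the error of such a mean is smaller than the SD of single spots. The SD between rats and the SD of spots are therefore unlike measures. Whether the spread between vehicle rats exceeds spot error was not tested. In WT Mitsui-7 the SD between rats was 0.95 (n = 6), above that of the spots, and rats 1 and 2 at -1.96 and -2.23 stood below the other 4 rats.

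Ordered by mean level, Mt3 stood at -0.94 ± 0.95 (SD, n = 6) in WT Mitsui-7, -1.01 ± 0.56 (n = 6) in GMO Mitsui-7 and -4.28 ± 0.41 (n = 6) in WT NM-403. Then followed GMO NM-403 at -5.09 ± 0.71 (n = 5), WT vehicle at -6.57 ± 0.31 (n = 6) and GMO vehicle at -6.78 ± 0.39 (n = 6). The steps within an exposure were small or overlapping. The 2 Mitsui-7 groups differed by 0.07 and the vehicle groups by 0.20, both under the SD of either group, and the NM-403 groups differed by 0.81 with overlapping values. The other steps, 3.28 from GMO Mitsui-7 to WT NM-403 and 1.48 from GMO NM-403 to WT vehicle, left a gap between the groups.

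Mt2A, one of the metal-induced pair of the family, rose after Mitsui-7 in both genotypes and after NM-403 in WT rats, by 1.51- to 1.72-fold. In WT vehicle rats its level ran from -0.05 to 0.60 (median 0.37), in WT Mitsui-7 from 0.66 to 1.18 (median 0.93) and in WT NM-403 from 0.51 to 1.47 (median 1.22). All 6 WT Mitsui-7 rats and 5 of 6 WT NM-403 rats lay above the highest WT vehicle rat. In GMO vehicle rats Mt2A ran from 0.51 to 0.89 (median 0.71) and in GMO Mitsui-7 from 0.88 to 1.56 (median 1.44), with 5 of 6 exposed rats above all vehicle rats. The 5 GMO NM-403 rats had 0.93, 0.69, 1.15, 0.93 and 0.74, of which 3 were above the vehicle range.

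The change of Mt2A was 0.60 ± 0.14 log2 in WT Mitsui-7 (limma with Benjamini-Hochberg adjustment over all genes, adjusted p = 0.00278), a comparison in which 14.0% of all genes passed, 8.42% higher and 5.56% lower. In WT NM-403 it was 0.78 ± 0.14 (limma adjusted p = 0.000646), where 3.20% of genes passed (2.30% higher, 0.899% lower), and in GMO Mitsui-7 0.67 ± 0.14 (limma adjusted p = 0.0012), where 11.6% passed (5.29% higher, 6.29% lower). In GMO NM-403 the difference was 0.18 ± 0.14 and did not pass (limma adjusted p = 0.668, with 1.52% of genes called, 1.27% higher and 0.253% lower). The 3 calls held in all 13 alternative settings and with each array of the groups left out in turn. Between the nanotubes, Mitsui-7 minus NM-403 in WT rats was -0.18 ± 0.14 (limma adjusted p = 0.646, with 3.33% of genes called, 2.78% higher and 0.552% lower). In GMO rats that difference was 0.48 ± 0.14 (limma adjusted p = 0.102, with 1.37% of genes called, 1.09% higher and 0.278% lower). The GMO difference was 0.39 with slide as a fixed block (limma adjusted p = 0.0538), 0.41 with slide as a random block (adjusted p = 0.0416) and 0.58 without GMO Mitsui-7 rat 3 (adjusted p = 0.0236), so its call depended on the model.

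Mt1, the other metal-induced gene, was higher on average in each exposed group but passed the test in none of them. Its level ran from 1.11 to 1.82 (median 1.56) in WT vehicle rats, from 1.65 to 2.06 (median 1.84) after Mitsui-7 and from 1.38 to 2.56 (median 2.04) after NM-403. In GMO rats it ran from 1.24 to 2.22 (median 1.72) with vehicle and from 1.5 to 2.40 (median 2.16) with Mitsui-7, and the 5 NM-403 rats had 2.15, 1.62, 2.36, 1.90 and 1.29. Every exposed group overlapped its vehicle group. The differences were 0.33 ± 0.19 in WT Mitsui-7 (limma adjusted p = 0.274), 0.54 ± 0.19 in WT NM-403 (limma adjusted p = 0.127), 0.37 ± 0.19 in GMO Mitsui-7 (limma adjusted p = 0.219) and 0.15 ± 0.20 in GMO NM-403 (limma adjusted p = 0.825). Between nanotubes Mt1 differed by -0.21 ± 0.19 in WT rats (limma adjusted p = 0.736) and by 0.22 ± 0.20 in GMO rats (limma adjusted p = 0.67). The SD of Mt1 between rats was 0.16 log2 in WT Mitsui-7, the lowest of the groups, to 0.43 in WT NM-403, the highest. The SD of its spots on an array was 0.04 to 0.11 over all groups. Spots of 1 array do not show error between arrays or slides, so the 2 SDs are unlike measures. How much of the spread lies between rats was not tested.

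Mt1 after NM-403 in WT rats was called once slide was in the model. The change was then 0.50 ± 0.11 with slide as a fixed block (limma adjusted p = 0.00433) and 0.51 with slide as a random block (limma adjusted p = 0.0105), and it was 0.67 without WT NM-403 rat 3 (limma adjusted p = 0.0335). Within the 5 slides that held both groups, Mt1 in WT NM-403 minus vehicle was 0.26 to 0.82. The 3 other comparisons of Mt1 with vehicle did not pass in any of the alternative settings. With slide as a fixed block their changes were nearly equal. They were 0.25 ± 0.11 in WT Mitsui-7, 0.26 ± 0.11 in GMO Mitsui-7 and 0.23 ± 0.11 in GMO NM-403.

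**Figure D2:**
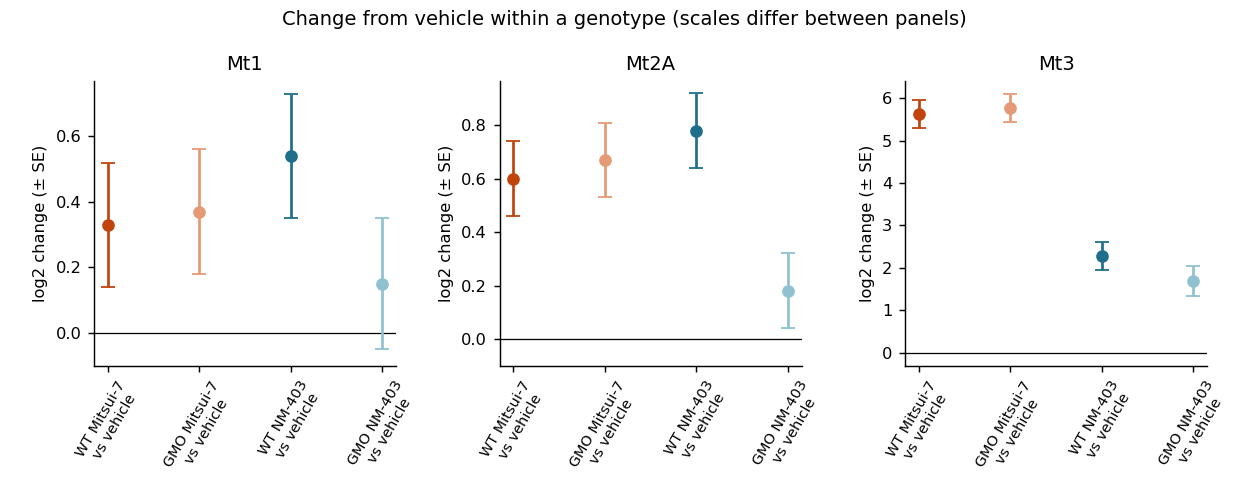
Log2 change of Mt1, Mt2A and Mt3 (y axis; points are limma estimates, bars their SE, and the scales differ between panels) for each nanotube against vehicle within a genotype (x axis). Mt3 ranges from 1.69 to 5.77 and is higher with Mitsui-7. For Mt1 and Mt2A the lowest value is that of GMO NM-403, at 0.15 and 0.18. With slide as a fixed block that of Mt1 was 0.23, close to 0.25 and 0.26 in WT and GMO Mitsui-7.

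Mt4 gave no usable level. Its probe was well above background on 1 of 35 arrays and it was not among the genes tested. That array was WT Mitsui-7 rat 5, with a signal of 38.1, the same array that had 86.4% of its spots above background. Over the other arrays the signal was between 1.90 and 8.18.

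No metallothionein passed the test for a difference between genotypes. In vehicle rats GMO minus WT was -0.20 ± 0.33 for Mt3, 0.36 ± 0.14 for Mt2A (limma adjusted p = 1.0) and 0.19 ± 0.19 for Mt1 (limma adjusted p = 1.0). No gene at all passed limma at this contrast (0 of 24468, with 483 at an unadjusted p under 0.05). The groups did not overlap for 0.0736% of genes higher and 0.0204% lower in GMO. Of the GMO vehicle rats 4 of 6 lay above every WT vehicle rat for Mt2A, and on the 5 slides that held both groups the difference ran from -0.01 to 0.63. The change with Mitsui-7 differed between genotypes by 0.14 ± 0.47 for Mt3, 0.07 ± 0.19 for Mt2A and 0.05 ± 0.27 for Mt1, as GMO minus WT. With NM-403 it differed by -0.60 ± 0.48 for Mt3, by -0.60 ± 0.20 for Mt2A (limma adjusted p = 0.983) and by -0.39 ± 0.27 for Mt1 (limma adjusted p = 0.983). These interactions called 0 genes for either nanotube by limma, with 729 for Mitsui-7 and 412 for NM-403 at an unadjusted p under 0.05. The smaller change of Mt2A in GMO than in WT rats with NM-403 therefore did not pass the correction.

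Arrays of slide 1 were low in Mt1 and Mt2A for their groups. A slide here is the glass slide that carries several arrays, and there were 5. On slide 1 all 7 arrays lay below their group mean for Mt1, by 0.45 on average (mean deviation -0.45 log2), and all 7 also for Mt2A (mean deviation -0.30). For Mt3 the mean deviation on slide 1 was -0.07. The 75th percentile used for scaling ran from 10.20 to 11.06 log2 on slide 1 and from 9.63 to 10.75 on slide 5, and its part in the deviations was not tested. No WT Mitsui-7 array was on slide 1, that group spanning 4 slides. With slide as a fixed block Mt3 changed by 5.57 ± 0.34 in WT Mitsui-7, 2.29 ± 0.34 in WT NM-403, 5.74 ± 0.34 in GMO Mitsui-7 and 1.65 ± 0.36 in GMO NM-403. Within single slides Mt3 minus vehicle ran from 4.16 to 6.53 and from 1.54 to 2.79 in WT rats, and from 5.13 to 6.03 and from 1.03 to 2.43 in GMO rats, for Mitsui-7 and NM-403 respectively. The same within-slide differences of Mt2A were 0.33 to 0.73 and 0.49 to 1.19 in WT rats, and 0.31 to 0.81 and 0.04 to 0.34 in GMO rats. Those of Mt1 were 0.00 to 0.45 in WT Mitsui-7, -0.02 to 0.54 in GMO Mitsui-7 and -0.07 to 0.54 in GMO NM-403.

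Arrays with high Mt1 for their group tended to have high Mt2A. Both values were scaled by the same percentile of the array, and with 1 array per rat, rat and array cannot be told apart. The part of the shared scaling was not tested. Deviations from the group means correlated at Pearson r = 0.76 and Spearman rho = 0.71 over 35 arrays (permutation p within groups, two-sided, 1e-05 for r, the smallest that 100000 permutations can give, and 7e-05 for rho; Benjamini-Hochberg adjusted p for r over 3 pairs 3e-05). Without the 2 arrays farthest from the median, WT NM-403 rat 3 and GMO Mitsui-7 rat 3, r was 0.66. With slide means removed from all 35 arrays, r was 0.51 (permutation p = 0.0114). No such relation was detected for Mt3, with r = -0.01 (rho -0.00) to Mt1 (permutation p = 0.952, and 0.986 for rho) and r = 0.18 (rho 0.22) to Mt2A (permutation p = 0.277, and 0.228 for rho); the adjusted p for r was 0.952 and 0.415. Without the same 2 arrays these r were -0.14 and 0.08.

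**Figure D3:**
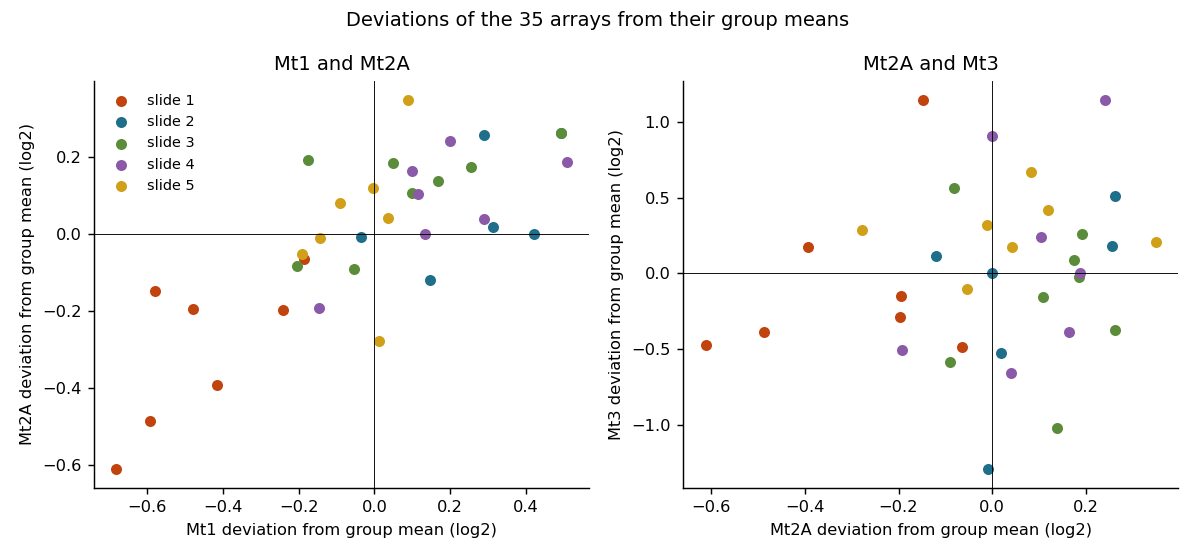
Deviation of each of the 35 arrays from its group mean (log2), Mt2A against Mt1 on the left and Mt3 against Mt2A on the right, coloured by slide. Mt1 and Mt2A deviate together (r = 0.76), with the slide 1 arrays at the lower left, and Mt2A and Mt3 do not show such a pattern (r = 0.18).

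The genes whose pattern was most like that of each metallothionein were found by the root mean square (RMS) difference over 35 arrays, after the WT vehicle mean of each gene was subtracted, among 14653 genes with a symbol. Nearest to Mt3 was Il24, a cytokine of the IL-10 family, with an RMS difference of 0.90 log2. Il24 averaged 4.43 above WT vehicle in WT Mitsui-7, 2.22 in WT NM-403, 4.88 in GMO Mitsui-7 and 1.88 in GMO NM-403. The next was Mmp12, the macrophage elastase, at 1.09, with 4.16, 2.44, 4.12 and 2.51 in the same groups. Then came Sctr, the secretin receptor, at 1.18, Cxcl11, an interferon-induced chemokine, at 1.23 and Slc1a6, a glutamate transporter, at 1.24. These 3 genes were above background on no WT vehicle array (0 of 6), so their distances from vehicle are not measured folds. A sixth gene was also at 1.24, so the 5 genes do not form a set apart from those that follow. With quantile normalization 4 of the 5 genes were again the nearest to Mt3.

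**Figure D4:**
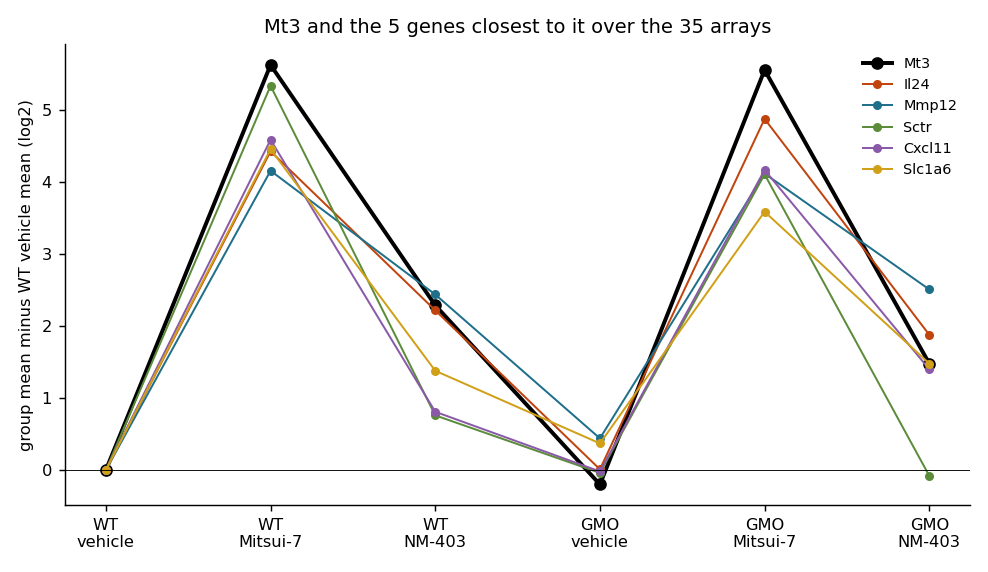
Group mean minus WT vehicle mean (y axis, log2) in the 6 groups (x axis) for Mt3 and for the 5 genes with the smallest RMS difference from it. Il24 and Mmp12 follow Mt3 after both nanotubes, whereas Sctr is 5.34 above WT vehicle in WT Mitsui-7 and -0.08 from it in GMO NM-403.

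For Mt2A and Mt1 the sixth gene was hardly farther away than the first 5. The 5 nearest to Mt2A were F3, the tissue factor that starts coagulation, Mcm3, a subunit of the replicative helicase, Snx8, Micall2 and Ripk3, a kinase of necroptosis, at RMS differences of 0.27 to 0.28. A sixth gene was at 0.29, and 4 of the 5 were kept with quantile normalization. Nearest to Mt1 were Mk1, Mfsd14a, Gaa, the lysosomal alpha-glucosidase, Tc2n and Lsm11 at 0.23 to 0.26, of which 2 were kept.

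Genes that handle zinc were followed next. Counts of called genes in this and the next lists are to be read against the share of all genes called, 14.0%, 3.20%, 11.6% and 1.52% in WT Mitsui-7, WT NM-403, GMO Mitsui-7 and GMO NM-403. Of the zinc exporters and metal-response regulators 11 were on the array and 8 could be tested, and their median change from vehicle was -0.12, -0.06, -0.10 and -0.06 log2 in WT Mitsui-7, WT NM-403, GMO Mitsui-7 and GMO NM-403. The median of all genes was 0.03, -0.00, -0.02 and -0.08 in the same order. None of the 8 rose, and 1 fell in WT Mitsui-7, the zinc transporter Slc30a3 (-0.35 ± 0.11, limma adjusted p = 0.0374), a call lost in 3 alternative settings (highest adjusted p 0.0832). Of the 14 zinc importers 3 rose and 2 fell in WT Mitsui-7, 1 fell in WT NM-403, 2 fell in GMO Mitsui-7 and 0 changed in GMO NM-403. The counts after NM-403 in WT rats and after Mitsui-7 in GMO rats are near those shares. Slc39a2 fell by 0.67 in WT Mitsui-7 (SE 0.18, limma adjusted p = 0.0104), by 0.75 in WT NM-403 (SE 0.18, adjusted p = 0.0141, lost at 0.122 when only those groups were fitted) and by 0.69 in GMO Mitsui-7 (SE 0.18, adjusted p = 0.00974). Slc39a14, an importer of zinc and iron known to be induced in inflammation, rose by 1.17 ± 0.30 in WT Mitsui-7 (limma adjusted p = 0.0065), but not after quantile normalization (adjusted p = 0.136), and was above background on 3 of 6 vehicle arrays. Slc39a5 fell by 0.44 in WT Mitsui-7 (adjusted p = 0.0237) with its brightest probe, while the mean of its probes was 0.31 higher (adjusted p = 0.389). Its call in GMO Mitsui-7 (-0.41) was kept in 4 of 12 alternative settings and in 4 of 12 fits with an array left out. Slc39a12 rose by 0.79 in WT Mitsui-7, a call kept in 8 of 12 alternative settings and in 2 of 12 fits with an array left out.

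Of 13 genes that handle copper 4 rose in WT Mitsui-7, 2 in WT NM-403, 3 in GMO Mitsui-7 and 1 in GMO NM-403, and 0 fell, where 14.0%, 3.20%, 11.6% and 1.52% of all genes were called. The GMO NM-403 call was Steap3 (0.98 ± 0.25, limma adjusted p = 0.0333), which was lost in 4 alternative settings and was -0.01 with normexp correction. In WT NM-403 the calls were Steap3 (0.9), kept in 7 of 12 fits with an array left out, and Slc31a1 (0.42), kept in 4 of 12. Atox1 in GMO Mitsui-7 (0.39) was kept in 6 of 12 such fits. The list medians were 0.02, -0.03, 0.10 and 0.02, close to those of all genes. Steap3, a reductase of iron and copper, rose by 1.46 ± 0.24 in WT Mitsui-7 (limma adjusted p = 4.57e-05) and by 1.56 ± 0.24 in GMO Mitsui-7 (adjusted p = 2.68e-05). It was above background on 3 of 6 vehicle arrays in each genotype, and with normexp correction the changes were 0.49 and 0.37, the latter no longer called (adjusted p = 0.0693). Slc31a1, the copper importer CTR1, rose by 0.70 ± 0.11 in WT Mitsui-7 (adjusted p = 4.71e-05) and by 0.75 ± 0.11 in GMO Mitsui-7 (adjusted p = 2.52e-05). Its probes disagreed, since the mean of all of them did not pass (adjusted p = 0.0625 and 0.296). Cp, the copper-carrying ferroxidase ceruloplasmin, rose by 0.41 ± 0.09 in WT Mitsui-7 (adjusted p = 0.00129). Atox1, the copper chaperone, rose by 0.43 ± 0.12 there (adjusted p = 0.0153), not called when only the 2 groups were fitted (adjusted p = 0.08). Of 14 genes of iron handling 0 changed in any of the 4 comparisons with vehicle.

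Genes of glutathione synthesis and the NRF2 response were tested for 11 of 12 listed, and 5 rose in WT Mitsui-7, 2 in WT NM-403, 1 in GMO Mitsui-7 and 1 in GMO NM-403, with 0 falling, against 14.0%, 3.20%, 11.6% and 1.52% of all genes called. The count in GMO Mitsui-7 is not above that share. Their medians were 0.09, 0.21, 0.03 and 0.09. Slc7a11, the cystine importer that feeds glutathione synthesis, led them with 3.53 ± 0.29 in WT Mitsui-7 (limma adjusted p = 2.47e-10) and 3.15 ± 0.29 in GMO Mitsui-7 (adjusted p = 3.97e-09). After NM-403 Slc7a11 rose by 1.38 ± 0.29 in WT rats (adjusted p = 0.00506) and by 1.99 ± 0.31 in GMO rats (adjusted p = 0.000258). With normexp correction those 4 changes of Slc7a11 were 1.85, 1.25, 0.60 and 0.49, the last no longer called (adjusted p = 0.146). Slc7a11 was also higher with Mitsui-7 than with NM-403 in WT rats (2.15 ± 0.29, adjusted p = 1.14e-05). Gss, glutathione synthetase, rose by 0.54 ± 0.13 in WT Mitsui-7 (adjusted p = 0.00544). Srxn1, sulfiredoxin, rose by 0.61 ± 0.15 in WT Mitsui-7 (adjusted p = 0.00399) and by 0.70 ± 0.15 in WT NM-403 (adjusted p = 0.00365, not called at 0.0711 when only those groups were fitted).

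Lists for glucocorticoid response, IL-6 and STAT3 signalling, hypoxia response and the chromosomal neighbours were counted next. The share of all genes called was 14.0%, 3.20%, 11.6% and 1.52% in WT Mitsui-7, WT NM-403, GMO Mitsui-7 and GMO NM-403. Counts of called transcripts do not measure the activity of these signals, whose part in the metallothionein values was not tested. Several of the counts, such as those for IL-6 and STAT3 signalling and for the chromosomal neighbours, are near that share. Of 11 genes that respond to glucocorticoids 1 rose and 3 fell in WT Mitsui-7, 3 fell in GMO Mitsui-7, and 0 changed after NM-403. Nr3c1, the glucocorticoid receptor, fell by 0.37 (SE 0.08, limma adjusted p = 0.000927) in WT Mitsui-7 and by 0.36 (SE 0.08, adjusted p = 0.0018) in GMO Mitsui-7. Klf9 fell by 0.55 (SE 0.12, adjusted p = 0.00213) and Zbtb16 by 1.52 (SE 0.39, adjusted p = 0.00746) in WT Mitsui-7, where the kinase Sgk1 rose by 0.46 ± 0.10 (adjusted p = 0.00202). Of 11 genes of IL-6 and STAT3 signalling 2 rose in WT Mitsui-7, the kinase Jak2 (0.34 ± 0.09, adjusted p = 0.011) and Osmr. Osmr had the larger change (0.97), but its call was kept in 7 of 11 alternative settings. In GMO Mitsui-7 1 rose and 1 fell, and 0 were called after NM-403. Il6 itself was too dim to test. Of 12 genes that respond to hypoxia 2 rose and 1 fell in WT Mitsui-7, 1 rose in WT NM-403, 2 rose and 2 fell in GMO Mitsui-7, and 0 changed in GMO NM-403. The glucose transporter Slc2a1 rose by 0.64 ± 0.12 in WT Mitsui-7 (adjusted p = 0.000242) and by 0.46 ± 0.12 in GMO Mitsui-7 (adjusted p = 0.00894). Ndrg1 rose by 0.68 in WT Mitsui-7, a call kept in all 13 alternative settings, and by 0.35 in GMO Mitsui-7, kept in 10 of 13. Few genes beside the family on the chromosome passed. Nup93 and Bbs2 are the nearest protein-coding genes on either side in RefSeq, and of 7 neighbours tested the only call was Gnao1 in GMO Mitsui-7 (-0.79 ± 0.26, adjusted p = 0.0436), lost in 4 alternative settings. No gene of these 9 lists passed in the comparison of genotypes or in either interaction (0 by limma).

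**Figure D5:**
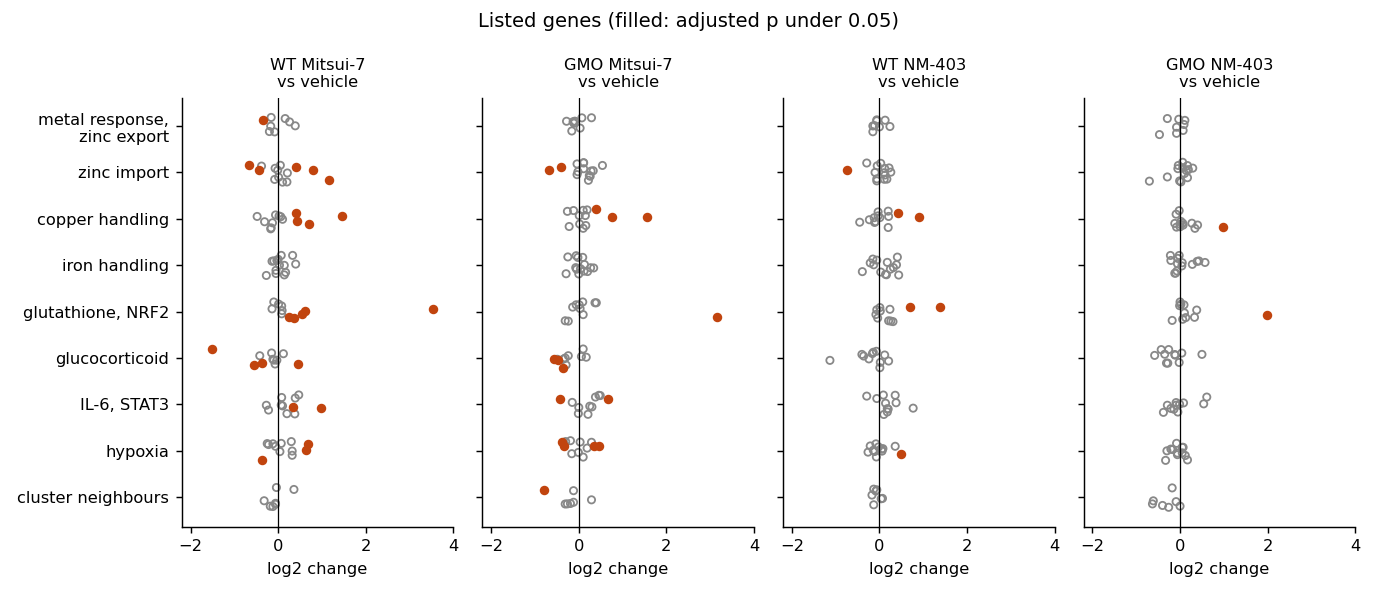
Log2 change from vehicle (x axis) of each tested gene of the 9 lists (rows) in the 4 comparisons with vehicle (panels), filled where the limma adjusted p was under 0.05. Slc7a11 stands farthest to the right in each panel, from 1.38 to 3.53, and the iron handling row has no filled point.

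Marker genes of several cell types also differed from vehicle in exposed groups. Since whole lobes were measured, more cells of a type and more RNA per cell cannot be told apart. The summed level of 8 neutrophil markers, as linear signal relative to the 75th percentile, ran from 6.87 to 12.5 in WT vehicle, 10.8 to 24.8 in WT Mitsui-7 and 19.7 to 30.4 in WT NM-403. In GMO rats it ran from 6.99 to 15.4, 13.7 to 20.0 and 16.2 to 23.8. Retnlg made up most of that sum after Mitsui-7, a median of 84.9% in WT and 78.4% in GMO rats, against 33.2% and 37.7% after NM-403. In WT Mitsui-7 Retnlg rose by 1.5 ± 0.28 (limma adjusted p = 0.000278) and Fpr1 fell by 0.81 (SE 0.16, adjusted p = 0.000688), while S100a8 and S100a9 were at -0.51 and -0.64 from vehicle and did not pass (adjusted p = 0.3 and 0.172). Of these 8 neutrophil markers 4 rose in WT NM-403, 2 in GMO NM-403, and 1 rose and 1 fell in each Mitsui-7 group, where the share of all genes called was 14.0% in WT Mitsui-7, 3.20% in WT NM-403, 11.6% in GMO Mitsui-7 and 1.52% in GMO NM-403. The sum of 12 macrophage markers ran from 83.5 to 95.9 in WT vehicle, 86.2 to 116 in WT Mitsui-7 and 88.8 to 122 in WT NM-403, and from 83.1 to 149, 99.5 to 130 and 89.4 to 123 in GMO rats. Lyz2 alone made up 89.9% to 96.9% of it and did not pass in any comparison with vehicle, so the sum says little of the other markers. Of the 12 macrophage markers 6 rose in WT Mitsui-7, 2 in GMO Mitsui-7, 2 in WT NM-403 and 0 in GMO NM-403, the integrin gene Itgam by 2.35 ± 0.22 in WT Mitsui-7 (limma adjusted p = 2.45e-09). Of 6 endothelial markers 4 fell in each Mitsui-7 group and 0 in either NM-403 group. In WT and GMO rats given Mitsui-7, 4 and 3 of 6 alveolar type 1 markers fell, 4 and 3 of 5 cardiac muscle markers and 3 and 1 of 3 erythroid markers. Of 5 ciliated cell markers 3 rose in each Mitsui-7 group, and 1 fell in GMO Mitsui-7. Of 4 mesothelial markers 1 rose and 2 fell in WT Mitsui-7 and 1 rose in GMO Mitsui-7. After NM-403, 3 of the mesothelial markers fell in WT and 1 in GMO rats. Of 5 fibroblast markers 2 rose and 2 fell in WT Mitsui-7, and 1 rose and 1 fell in GMO Mitsui-7. In WT NM-403 1 fibroblast marker fell. Of 5 club and secretory markers tested 2 rose and 1 fell in each Mitsui-7 group. After NM-403, 2 alveolar type 1 markers fell in GMO and 1 in WT rats. Their part in the metallothionein values was not tested. Of 8 neural and glial markers, of interest because Mt3 is known from brain, the defining genes Gfap and Syp were above background on 1 of 35 arrays each and Snap25 on 0, and 5 of the 8 could be tested. Slc1a2, the astrocyte glutamate transporter, rose by 1.34 ± 0.24 in WT Mitsui-7 (limma adjusted p = 0.000149) and by 0.79 ± 0.24 in GMO Mitsui-7 (adjusted p = 0.0268), but was above background on 3 of 6 WT and 4 of 6 GMO vehicle arrays. Rbfox3 fell by 0.75 in WT Mitsui-7 (SE 0.24, adjusted p = 0.0367), and 0 changed after NM-403. The sum of that list ran from 1.35 to 3.05 in WT vehicle, 2.46 to 4.52 in WT Mitsui-7, 1.78 to 4.49 in WT NM-403, and 0.895 to 3.00, 1.31 to 3.23 and 1.26 to 3.44 in GMO vehicle, Mitsui-7 and NM-403. Aqp4, a water channel, made up 71.6% to 94.4% of it and did not pass in any comparison with vehicle.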

How the data were processed

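Per the file headers, each array was scanned to a table of 62976 spots with a background-corrected processed signal, deposited as an intensity on a linear scale; Agilent Feature Extraction 12.0.1.1 is named in the submitters' processing notes. The authors also deposited a matrix of log2 values for 11555 probes, centred per probe, used here as an alternative (11545 of them matched a scanner probe). Its column medians ran from -0.08 to 0.07 and every probe median was 0.00; its filter and its scaling between arrays are unknown here.

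From the scanner files, log2 signal was taken relative to the 75th percentile of the 58717 non-control spots. Outlier spots (221 to 699 per array) were left out, spots of a probe averaged, and a gene represented by its brightest probe. Genes were kept where well above background on at least 5 arrays, with at least 3 values per group, which gave 24468 genes. All 9 comparisons came from 1 limma fit over the 6 groups (limma 3.58.1 in R 4.3.3; empirical Bayes, Benjamini-Hochberg over all genes, threshold 0.05), tested on simulated data; plus-minus values are limma SE unless marked SD. Correlations used 100000 permutations within groups.

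The check of the altered gene in GMO rats is not reported here. The members and gene lists were chosen with earlier results of these data known. Named genes are the metallothioneins, the 5 genes nearest to each, and members of the lists. The list genes were drawn from up to 4 called members per list and comparison with the largest changes. Not all of those are named in the text, so the ones named are not always the largest. Itgam and Mt4 in WT Mitsui-7 rat 5 were singled out after their values were seen. Nothing says whether rats shared litter or cage, so p-values measure the spread between these rats. Arrays of a replicate number did not deviate together (mean r 0.0296 over 85 pairs, from -0.574 to 0.693), so the numbers do not pair them. Arrays on a slide did (mean r 0.239 over 99 pairs, against -0.0564 over 411).

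Alternatives were other scalings (array median, quantile, percentile over probes), normexp with an offset of 50, the authors' values, other filters (none, or above background on every array of a group), the mean of all probes, slide as a fixed or random block (correlation 0.355), the replicate block, only the groups compared, and leaving out each array.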

Additional observations from a re-analysis of the deposited data

Results flagged for a closer look

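Among the 24 sets of 5 or 6 arrays (4 metallothioneins in 6 groups), 3 had 1 array set apart from the others by a large share of the group's range. Chance alone sets apart about 1 set in 20. In GMO Mitsui-7, rat 3 had the lowest Mt1 (1.5, the next being 2.09) and the lowest Mt2A (0.88, the next being 1.37). That array was on slide 1, on which all 7 arrays lay below their group means for both genes. In WT Mitsui-7, rat 5 had Mt4 at -5.05, the only array of 35 with Mt4 well above background, and it also had the highest share of spots above background (86.4%). The causes of these values were not tested.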

How the results depend on the processing

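Calls of Mt2A kept their direction and side of the threshold in all 13 alternatives and in all fits without 1 array, and the other changes of metallothioneins are given above where they moved. Of 49 calls of named list genes 20 held throughout, 21 in every alternative and 29 with each array left out. With normexp correction Mt3 differed between Mitsui-7 and NM-403 by 2.58 in WT and 2.99 in GMO rats, and Steap3 in GMO NM-403 was -0.01 in place of 0.98. With the mean of all probes Slc39a5 in WT Mitsui-7 was 0.31 in place of -0.44.

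Counts of called genes over all genes were 3419, 783, 2832, 373, 814 and 334 in WT Mitsui-7, WT NM-403, GMO Mitsui-7 and GMO NM-403 against vehicle and in Mitsui-7 against NM-403 in WT and GMO rats. In that order they were 5431, 1892, 5521, 960, 1538 and 507 with slide as a fixed block, 5420, 1904, 5147, 981, 1542 and 581 with slide as a random block, and 1744, 491, 1408, 163, 315 and 135 with the authors' values, where 9803 genes were tested. Normexp correction gave 1842 in GMO Mitsui-7, 184 in GMO NM-403 and 453 in WT Mitsui-7 against NM-403, and fits of only the groups compared gave 1715, 145 and 499 there. The replicate block alone gave 3537, 753, 2913, 348, 822 and 330, and with slide as a fixed block 5459, 1688, 5391, 692, 1472 and 462; with both blocks Mt1 in WT NM-403 and Mt2A in GMO Mitsui-7 against NM-403 were called (changes of 0.51 and 0.39), and no other call of a metallothionein changed. Leaving out each array gave 2286 to 3627, 459 (without WT NM-403 rat 6) to 936, 2054 to 3305, 227 to 618 (without GMO NM-403 rats 2 and 1), 553 to 801 and 234 to 403. Without GMO NM-403 rats 3 and 5 the GMO NM-403 count was 234 and 231. The interaction with Mitsui-7 called 0 genes, 2 with slide as a random block, and 0 to 1 with an array left out. The share of calls that were higher in WT Mitsui-7 was 60.2%, against 43.2% with array median scaling, 47.8% with quantile normalization, and 36.9% in the matrix the authors deposited. In GMO Mitsui-7 it was 45.7%, against 55.3% with array median scaling and 58.8% with the percentile over probes, an alternative chosen after seeing the data, and in WT Mitsui-7 against NM-403 83.4% against 66.4% (median), 72.6% (quantile) and 62.9% (authors' values). In GMO NM-403 it was 83.4% against 70.1% with normexp correction. Correlations of Mt1 and Mt2A deviations were 0.78 with quantile normalization. The dim vehicle level of Mt3 limits its fold changes.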
